A study of Mus musculus with 24 samples.

Results

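Mouse retinal organoids (MROs) sampled on the same day of culture were compared with each other, using the 6 organoids taken at day 25 (D25) out of 24 organoids in the series. The question was which annotated genes differed between individual D25 organoids by more than counting error, and which of these genes rose and fell in the same organoids. Of the 46603 annotated genes counted, the 12653 with a mean of 50 or more raw counts over the 6 organoids entered the comparison. Each library was made from the total RNA of 1 whole organoid, grown from the wildtype mouse embryonic stem cell line E14Tg2a, with genotype "Control" and water as the only solvent added. The other 18 organoids, 6 each at D20, D22 and D30, carried the same genotype and treatment and came from the same 1 independent experiment. In the protocol used, early aggregates are cut into pieces that grow into separate organoids, and the labels do not say which of the 6 D25 organoids were pieces of the same aggregate. The spread described here is therefore that between organoids of 1 line in 1 experiment.

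The retina arises from an outgrowth of the embryonic forebrain, and the same neuroepithelium also gives rise to the pigment epithelium, the ciliary margin and the optic stalk. In culture, stem cell aggregates that form retina can also contain forebrain neurons, pigment cells, choroid plexus and connective tissue cells. Rod photoreceptors are by far the most frequent cell type of the mouse retina, and they switch on their light detection genes after the last divisions of the retinal progenitors. RNA of a whole organoid mixes all of these cells.

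Between 14524620 and 18078956 reads per D25 organoid were counted on a gene or an assembled locus, and 3 counts corresponded to between 0.163 and 0.204 CPM (counts divided by the TMM-scaled library size). None of the 6 libraries was a repeat of another, as each of the 15 pairs differed by more than counting error (chi-square per degree of freedom from 11.55 to 71.52). Reads that did not align made up 8.93% in organoid 2 and between 6.11% and 6.64% in the other 5. Alignments to more than one place numbered 29554121 in organoid 5 and between 15464649 and 19532127 in the others. The 15 mitochondrially encoded genes were at 0 in every table.

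The labelled tissue was evident in all 6 organoids. Crx, the transcription factor of all photoreceptors, was counted at 845, 1070, 958, 970, 1070 and 892 CPM in organoids 1 to 6. Nrl, which directs photoreceptors to the rod fate, stood at 264, 374, 363, 342, 376 and 348 CPM. Organoid 1 was the lowest in both genes. In Nrl the other 5 lay close together, whereas in Crx organoid 6 lay near organoid 1. Nr2e3, which represses cone genes in rods, ranged from 507 to 699 CPM, and Rcvrn, a calcium sensor of photoreceptors, from 150 to 204 CPM.

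The size of the spread was expressed as an excess coefficient of variation (CV), the SD between organoids after the part due to counting was taken away, divided by the mean. By edgeR's goodness of fit test against counting error alone, 10726 of the 12653 genes (84.8%) varied between the 6 organoids at an adjusted p below 0.01. Most of that variation was small, with a median excess CV of 0.129 and 90% of genes between 0.0379 and 0.442. An excess CV of 0.5 or more was reached by 471 genes (3.72%), and of 1 or more by 51 genes. The same measure had a median of 0.143 at D20, 0.157 at D22 and 0.171 at D30, with 492, 489 and 575 of the same genes at 0.5 or more. The 4 photoreceptor genes above had excess CVs from 0.0947 (Crx) to 0.121 (Nrl). The threshold falls in a continuous range, where Rrm2, Dnmt3b and Adamts9 lay just inside at 0.501, and Acat2 (0.499), Mt1 and Gm23971 (both 0.498) just outside.

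**Figure D1:**
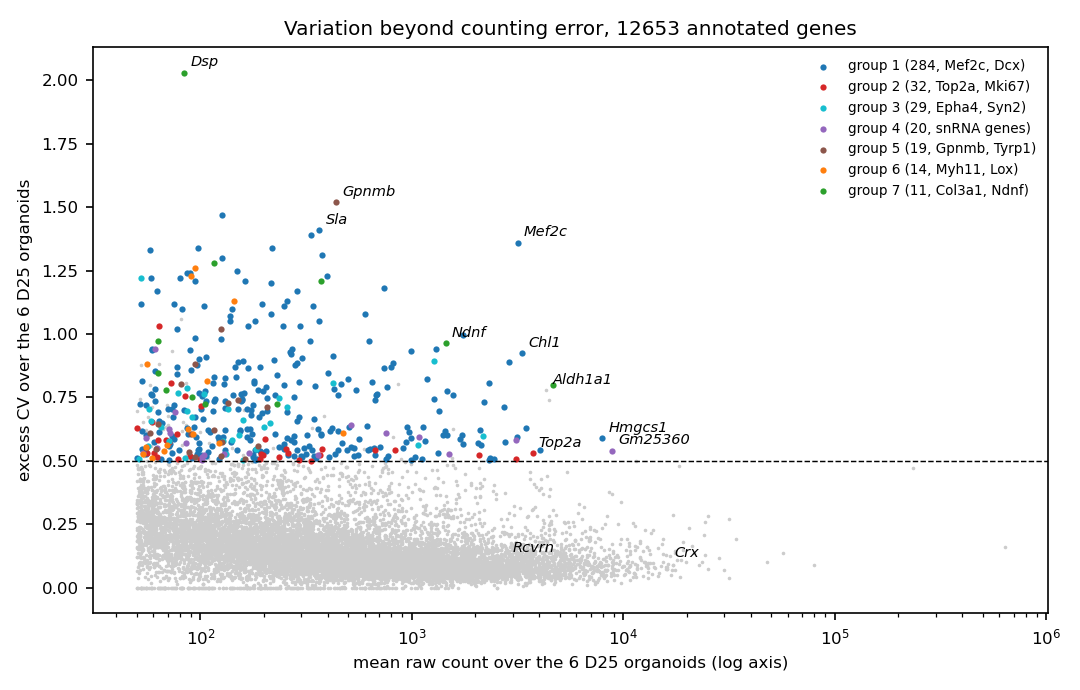
Excess CV over the 6 D25 organoids (vertical axis) against the mean raw count (horizontal log axis) for 12653 annotated genes (grey), with the genes of 7 co-varying groups in colour and the number of genes of each group in the key. The dashed line marks an excess CV of 0.5, which 471 genes reach, and the photoreceptor genes Crx and Rcvrn lie far below it at high counts.

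At the stable end of the range, 12 of the 3461 genes with a mean of 1000 or more counts had an excess CV of 0. The first 5 of these by gene identifier were Yes1, a tyrosine kinase (81.2 to 87.3 CPM), Appl2, an endosomal adaptor (64.3 to 67.7 CPM), Cdc23, a subunit of the anaphase-promoting complex (147 to 154 CPM), Tsn, a nucleic acid binding protein (95.3 to 99.4 CPM) and Rbbp5, a subunit of histone methyltransferase complexes (74.4 to 79.2 CPM). Their 6 values differed by no more than counting error.

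Organoids 1 and 2 stood at opposite ends of the spread. Organoid 1 was the highest of the 6 in 306 of the 471 genes and organoid 2 the lowest in 230. The first principal component of all 12653 genes held 51.8% of the variance (jackknife SE 7.28), with organoid 1 at 42.2, organoid 6 at 17.7, organoid 3 at 2.83, organoid 4 at -1.89, organoid 5 at -22.1 and organoid 2 at -38.7. Organoids 1 and 2 were the farthest apart of the 15 pairs (Euclidean distance 83.21 on log2 CPM), and organoids 3 and 6 the closest (38.68). Without organoid 1, 335 genes reached an excess CV of 0.5, and without organoid 2 the number was 409. Among the 5753 genes with a mean of 500 or more counts, 93 were in the variable set. Protein coding genes made up 423 of the 471. Their share among the 12653 genes was not computed, so this count is not a comparison.

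Clustering of the 471 genes by their correlation over the 6 organoids gave 7 groups of 10 or more genes, which held 409 genes. With 6 organoids a profile has few free values, so these groups describe which genes moved together in these organoids. They are numbered by size and named here by their leading genes.

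**Figure D2:**
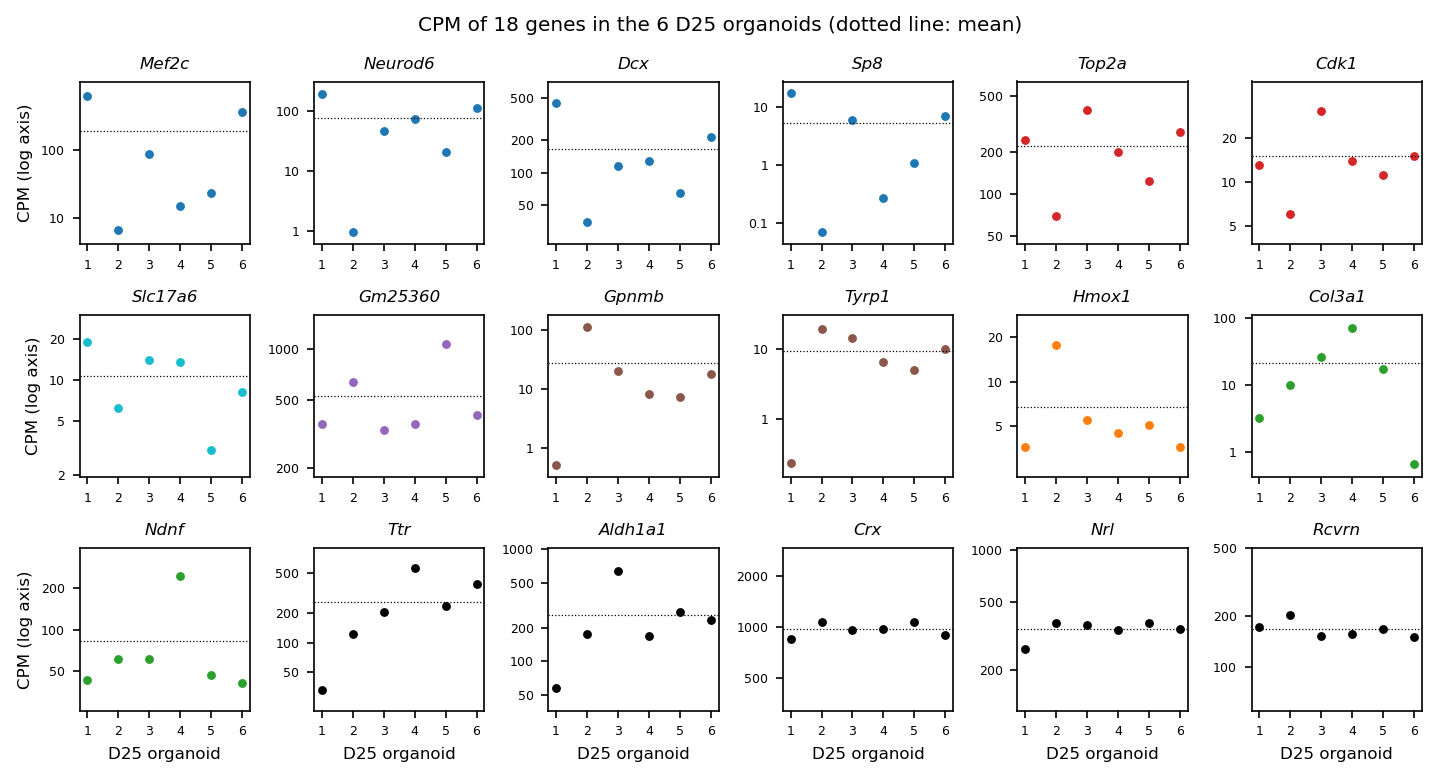
CPM (log axis) of 18 genes in D25 organoids 1 to 6, with the mean as a dotted line and colours by group. Mef2c, Neurod6, Dcx and Sp8 are highest in organoid 1, Top2a and Cdk1 in organoid 3, Gm25360 in organoid 5, Gpnmb and Hmox1 in organoid 2 and Col3a1 and Ndnf in organoid 4, whereas Crx, Nrl and Rcvrn are nearly level.

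Group 1, with 284 genes, was led by genes of neurons and of the forebrain, and 278 of its genes were highest in organoid 1. The summed level of the group was 18500, 3420, 6530, 6290, 4000 and 10300 CPM in organoids 1 to 6. Organoid 1 thus stood above organoid 6, organoids 3 and 4 were in between, and organoids 5 and 2 were lowest. In such bulk samples, more cells of a type and more RNA per cell cannot be told apart. Of its genes, 12 belonged to the list of cortex type excitatory neurons and all 5 counted members of the list of ventral forebrain and inhibitory neurons were in it.

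Mef2c, a transcription factor of maturing neurons, had the largest excess CV of the genes with a mean of 500 or more counts. It was found at 618, 6.74, 85.4, 15.3, 23.1 and 360 CPM, a 91.7-fold range, with an excess CV of 1.36 (jackknife SE 0.46). Organoids 1 and 6 were far above the other 4. Sla, an adaptor protein of receptor signalling, was at 75.4 CPM in organoid 1 and 37.9 CPM in organoid 6, and at no count in organoid 2, so that organoid 1 was at least 369-fold higher than the 3 counts a 0 allows in that library. In both genes, organoid 1 was the highest and organoid 2 the lowest. Neurod6, found in cortical pyramidal neurons and in some amacrine cells, was at 194, 0.953, 46.5, 74.4, 20.5 and 113 CPM. The level spanned a 204-fold range, with organoid 4 next after organoids 1 and 6.

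Sp8 and Sp9, transcription factors of inhibitory neurons of the ventral forebrain, ranked the 6 organoids as Mef2c did. Sp8 stood at 17, 0.0681, 5.9, 0.271, 1.05 and 7.01 CPM, with 1 read in organoid 2. Sp9 was at 16.3 CPM in organoid 1 and at no count in organoid 2, at least 79.6-fold apart. In contrast to Neurod6, Sp8 was nearly absent from organoid 4. Dlx6os1, an RNA transcribed from the opposite strand of the Dlx locus, was at 75.1 CPM in organoid 1 and at no count in organoid 2. Its count is uncertain because the strand setting of the counting is not given in the sources used here. The 5 counted members of this list had excess CVs from 1.05 to 1.31, and their sum, with the 11 members under the mean of 50 included, was 200, 4.97, 69.5, 6.02, 25.1 and 91.8 CPM.

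Genes used by most young neurons were in the same group. Dcx, a microtubule protein of migrating neurons, was at 442, 34.5, 116, 129, 64.5 and 215 CPM (excess CV 0.889). Chl1, a cell adhesion molecule of growing axons, was at 493, 18.1, 127, 171, 45.7 and 301 CPM (excess CV 0.925). Both genes were highest in organoids 1 and 6 and lowest in organoids 5 and 2, as was the sum of the group, but unlike the sum they were higher in organoid 4 than in organoid 3. Mapt, the microtubule protein tau, ranged from 95.1 CPM in organoid 5 to 427 CPM in organoid 1, Stmn2 from 95.5 to 391 CPM, Gap43, a growth cone protein, from 48.5 to 335 CPM, and Tubb2b, a neuronal tubulin, from 124 to 483 CPM. Thy1, a surface protein of projection neurons and retinal ganglion cells, was at 15.4 CPM in organoid 1 and between 1.36 and 6.3 CPM in the others. Nell2, Camkv, Arpp21, Opcml, Pou3f3, Shtn1, Plcb1, Scn2a and Syt4, all with a mean over 500 counts, had excess CVs from 0.824 (Scn2a) to 1.18 (Arpp21). Organoid 1 was the highest in each of these 9 genes.

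Of the 30 genes with the largest excess CVs, 22 belonged to group 1 and 8 to other groups. Besides those already given, A830018L16Rik, Lmo3, Prss12, Mpped1, 9130024F11Rik, Nkain2, Gda, Mal2, Gm37928, Kcnq5, Cntnap5a, Caln1, Sox1 and Tiam2 were among the 22, with excess CVs from 1.13 (Tiam2) to 1.47 (A830018L16Rik). Among them, Kcnq5 encodes a potassium channel, Cntnap5a an adhesion protein of the neurexin family and Sox1 a transcription factor of neural progenitors. Hmgcs1, an enzyme of cholesterol synthesis, and Gfap, the intermediate filament of glia, also fell in this group. Hmgcs1 was at 984, 258, 339, 355, 298 and 559 CPM. Gfap was at 109, 26.3, 139, 123, 24.7 and 69.7 CPM, with organoids 1, 3 and 4 high and organoids 2 and 5 low. Ncan, a matrix proteoglycan of the brain, Ccnd2, a D-type cyclin, Dclk1, a relative of Dcx, and Tmod2, an actin capping protein of neurons, had excess CVs of 0.714, 0.743, 0.573 and 0.509. How much of the group rests on organoid 1 can be read from its removal. Without it, 134 of the 284 genes still had an excess CV of 0.5 or more, and the median correlation between pairs of genes went from 0.879 to 0.783.

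Group 3, with 29 genes, differed from group 1 in that organoid 4 was nearly as high as organoid 1. Its sum was 824, 146, 369, 775, 177 and 471 CPM. The 2 groups merged when genes were joined at a lower correlation. Epha4, a receptor of axon guidance, was at 235, 49.1, 90.3, 165, 48 and 170 CPM. Sema3c, a secreted guidance protein, was at 123, 7.22, 44.6, 178, 27.4 and 54.9 CPM, and was higher in organoid 4 than in organoid 1. Slc17a6, the vesicular glutamate transporter of retinal ganglion cells and many brain neurons, was at 19, 6.2, 14, 13.7, 3.08 and 8.16 CPM. Organoid 1 was the highest in this gene and organoid 5 the lowest. Syn2, a synaptic vesicle protein, ranged from 1.57 to 10.1 CPM, Nr4a3, an activity-induced nuclear receptor, from 1.57 to 13.2 CPM, and Rspo3, an enhancer of Wnt signalling, from 0.989 to 7.37 CPM. Islr2, Lrp1b, Clstn2, Cntn2, Slc24a2, Homer2 and Ndst4 were in the same group, with excess CVs from 0.502 (Homer2) to 1.22 (Ndst4). Vax2os lies antisense to Vax2, and its count is uncertain for the reason given for Dlx6os1. Without organoid 2, 19 of the 29 genes kept an excess CV of 0.5 or more.

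Group 2, with 32 genes, was led by genes of mitosis, which dividing progenitors express and postmitotic neurons do not. Its sum was 959, 270, 1520, 800, 478 and 1080 CPM. Organoid 3 was highest in 27 of the 32 genes and organoid 2 lowest in 31. Top2a, the topoisomerase that untangles DNA for chromosome separation, was at 242, 70.2, 399, 201, 124 and 278 CPM, a 5.68-fold range. Mki67, which coats mitotic chromosomes, was at 204, 57.5, 318, 183, 102 and 228 CPM. Cdk1, the kinase that starts mitosis, was at 13.1, 5.99, 30.5, 14, 11.1 and 15 CPM. These 3 genes were highest in organoid 3 and lowest in organoid 2. Cenpf and Cenpe of the kinetochore, Aspm of the spindle pole, Nuf2, Hmmr, Kif23, Pbk and Rrm2, a subunit of ribonucleotide reductase, followed, with excess CVs between 0.501 (Rrm2) and 0.548 (Nuf2). Fgf15, a growth factor of retinal progenitors, was in this group at 5.02, 2.45, 14.3, 3.26, 4.37 and 6.4 CPM. Prss56, Pou3f4, Aldh1l1, Sall1, Apobec1, Slc26a7 and Acot1, named after their values were seen, are members that are not known as mitosis genes. Without organoid 2, 4 of the 32 genes kept an excess CV of 0.5 or more, and without organoid 3, 15 did.

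Since these genes moved together, the 250 bases before their start sites were searched for letters known from promoters of late cell cycle genes, the CCAAT box (CCAAT) and the cell cycle genes homology region (TTTGAA or TTCGAA), on both strands. The motifs were chosen after the group had been seen. RefSeq (GRCm38.p6) held such a region for 27 of the 32 genes and for 9290 of the 12652 gene symbols compared. A CCAAT box was found in 18 of the 27 (66.7%), against 37.2% of the 9290, and at least 2 of them in 12 (44.4%), against 14.1%. TTTGAA or TTCGAA was found in 8 of the 27 (29.6%), against 11.4%. The regions of Top2a, Mki67 and Cenpf are given here because these 3 genes were the best counted of the group, with the matched letters of either strand in capitals.
Top2a, chr11:99024190-99024439, minus strand: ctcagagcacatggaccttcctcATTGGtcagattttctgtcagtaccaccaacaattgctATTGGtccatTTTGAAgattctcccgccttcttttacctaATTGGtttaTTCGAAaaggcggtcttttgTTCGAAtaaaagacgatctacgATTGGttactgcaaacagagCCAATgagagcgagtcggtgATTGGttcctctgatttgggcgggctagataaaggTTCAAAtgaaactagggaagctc
Mki67, chr7:135716380-135716629, minus strand: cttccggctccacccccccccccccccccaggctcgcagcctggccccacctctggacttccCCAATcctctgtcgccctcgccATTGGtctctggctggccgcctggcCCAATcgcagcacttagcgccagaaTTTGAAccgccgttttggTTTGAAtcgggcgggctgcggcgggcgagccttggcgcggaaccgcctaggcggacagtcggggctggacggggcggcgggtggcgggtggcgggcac
Cenpf, chr1:189688087-189688336, minus strand: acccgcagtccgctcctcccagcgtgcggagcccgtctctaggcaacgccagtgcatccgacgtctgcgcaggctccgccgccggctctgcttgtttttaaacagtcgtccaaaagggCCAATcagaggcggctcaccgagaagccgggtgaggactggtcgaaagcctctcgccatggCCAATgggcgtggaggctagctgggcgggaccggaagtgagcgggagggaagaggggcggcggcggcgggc
Top2a holds 6 CCAAT boxes and 4 matches to the second motif, Mki67 holds 3 and 2, and Cenpf holds 2 and 0. The regions of Birc5, Nuf2, Ndc80, Pttg1 and Cenpp, also members of the group, hold neither. Among the members not known as mitosis genes, Pou3f4, Aldh1l1, Acot1 and Sall1 hold a CCAAT box. Prss56 and Apobec1, of the same kind, hold a match to the second motif. The shares of the group are therefore not those of its mitosis genes alone. In all, 6 motifs were searched in the 7 groups. The first pair was not particular to the mitosis genes, since 4 of the 7 regions of group 7 held a CCAAT box (57.1%) and 2 of them TTTGAA or TTCGAA (28.6%). In the other 5 groups these shares were at most 34.4% and 14.3%. Of the other motifs, CAGATG was found in 10.1% of the 189 regions of group 1, against 9.31% of all, CAGCTG in 12.7% against 11.4%, TAATTA in 2.65% against 2.12%, and CATGTG in 3 of the 14 regions of group 5 (21.4%) against 6.64%. A match of letters is a description and not a site.

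Group 5, with 19 genes, held genes of pigment cells and of stroma, and 18 of them were lowest in organoid 1. Its sum was 21.8, 315, 184, 161, 94.9 and 125 CPM. Gpnmb, a glycoprotein of melanosomes and of phagocytes, was at 0.513, 115, 20.3, 8.3, 7.51 and 18.5 CPM, a 225-fold range and the second largest excess CV of all genes (1.52, jackknife SE 0.644). Tyrp1, an enzyme of melanin synthesis, was at 0.228, 19.5, 14.4, 6.46, 5.06 and 10.1 CPM. Pmel, the fibril protein of melanosomes, was at 0.114, 22.5, 10.6, 4.02, 2.39 and 7.67 CPM. Organoid 1 had 2 to 9 reads of each of these 3 genes, and organoid 2 was the highest in all of them. Serpina3n, a protease inhibitor, Aqp1, a water channel, and Nid2 of the basement membrane were also lowest in organoid 1, at 1.71, 1.31 and 0.513 CPM. Without organoid 1, 10 of the 19 genes kept an excess CV of 0.5 or more and the median correlation between pairs went from 0.819 to 0.433.

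Group 6, with 14 genes, was highest in organoid 2, with a sum of 39, 228, 114, 76.6, 60.7 and 63.5 CPM. Myh11, the myosin of smooth muscle, was at 0.513, 20.4, 8.12, 1.79, 0.175 and 5.32 CPM. Lox, which crosslinks collagen, was at 19.7 CPM in organoid 2 and between 0.513 and 4.6 CPM in the others. Hmox1, the haem oxygenase induced by oxidative stress, was at 17.8 CPM in organoid 2 and between 3.59 and 5.54 CPM in the others, and Mt2, a metallothionein, at 12.2 CPM against 3.53 to 5.42 CPM. Grem1, a BMP antagonist, ranged from 1.2 to 29 CPM. Organoid 2 was the highest in each of these 5 genes. It was also the library with the fewest counted reads and the largest share of reads that did not align, and the part of these in the result was not tested. Without it, 4 of the 14 genes kept an excess CV of 0.5 or more.

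Group 7, with 11 genes, was highest in organoid 4 in every gene, with a sum of 181, 335, 376, 1140, 305 and 186 CPM. Col3a1, a fibrillar collagen, was at 3.25, 9.81, 26.1, 69.5, 17.2 and 0.665 CPM. Dcn, a proteoglycan that binds collagen, was at 0.741, 1.7, 5.05, 22.6, 8.38 and 0.725 CPM, and Lum, a related proteoglycan, at 1.31, 2.32, 6.08, 8.47, 3.73 and 0.0604 CPM. Organoids 1 and 6, which were high in group 1, were the lowest in these 3 genes. Ndnf, a secreted neurotrophic factor, was at 43.3, 61.3, 60.7, 246, 46.6 and 41.2 CPM, so that organoid 4 alone stood apart. Without that organoid its excess CV went from 0.963 to 0.188. Dsp, the desmoplakin of epithelial junctions, had the largest excess CV of all genes (2.03, jackknife SE 0.999), at 0.399, 1.57, 1.26, 23.9, 0.582 and 0.121 CPM. Nid1, a basement membrane protein, was at 14.7 CPM in organoid 4 and between 2.66 and 6.02 CPM in the others. Without organoid 4, 5 of the 11 genes kept an excess CV of 0.5 or more.

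Group 4, with 20 genes, was of another kind, with 10 genes of small nuclear RNAs (snRNAs), 2 of small nucleolar RNAs and 6 protein coding genes. It was highest in organoid 5, followed by organoid 2, with a sum of 722, 1230, 694, 679, 2130 and 774 CPM. Gm25360, an snRNA gene, was at 362, 644, 337, 362, 1070 and 411 CPM, and Gm25813, another, at 132, 210, 121, 117, 396 and 139 CPM. Gm24265, Gm24407, Gm23686, Gm25815 and Gm26110 are also annotated as snRNAs, with excess CVs from 0.521 to 0.642. Of the 32 snRNA genes with a mean of 50 or more counts, 30 were highest in organoid 5, and the median excess CV of the 32 was 0.475. The share of all genes compared that were highest in organoid 5 was not computed. Lars2, the mitochondrial leucyl-tRNA synthetase, and Hmgn2, a chromatin protein, were at 95.5 and 182 CPM in organoid 5, against at most 58.4 and 81.3 CPM in the others. Cacng3, an auxiliary subunit of glutamate receptors, was at 18 CPM in organoid 5 and 16.1 CPM in organoid 2. Genes of such small RNAs have near-identical copies in the genome, and the counting left out reads with more than one placement, so these values are uncertain. Organoid 5 also had the most alignments to more than one place, and the part of this in the result was not tested. Without organoid 5, 5 of the 20 genes kept an excess CV of 0.5 or more.

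Several variable genes lay outside the 7 groups. Ttr, a thyroid hormone carrier made by the choroid plexus and the pigment epithelium, was at 33, 123, 205, 563, 236 and 388 CPM. Clic6, a chloride channel protein of the choroid plexus, joined it in a group of 6 genes, at 0.513, 0.953, 3.25, 5.7, 1.98 and 5.68 CPM. Organoid 1 was the lowest in both, and organoids 4 and 6 the highest. Aldh1a1, an enzyme of retinoic acid synthesis, was at 58.2, 176, 643, 169, 277 and 232 CPM, with organoid 3 well above the rest and organoid 1 below. Folr1, a folate receptor, followed it, from 0.342 CPM in organoid 1 to 7.82 CPM in organoid 3. Ero1l, an oxidase of the endoplasmic reticulum induced by low oxygen, was at 89.9, 210, 51.2, 98, 74.7 and 48.9 CPM, and Adm, the adrenomedullin gene, at 21, 41.5, 11, 18.1, 23.5 and 12.8 CPM. Both were highest in organoid 2. Foxn4, a factor of retinal progenitors, was at 1.2, 3.95, 6.74, 1.68, 4.31 and 2.24 CPM, and Fosl2, a subunit of AP-1, at 5.72 to 19 CPM.

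**Figure D3:**
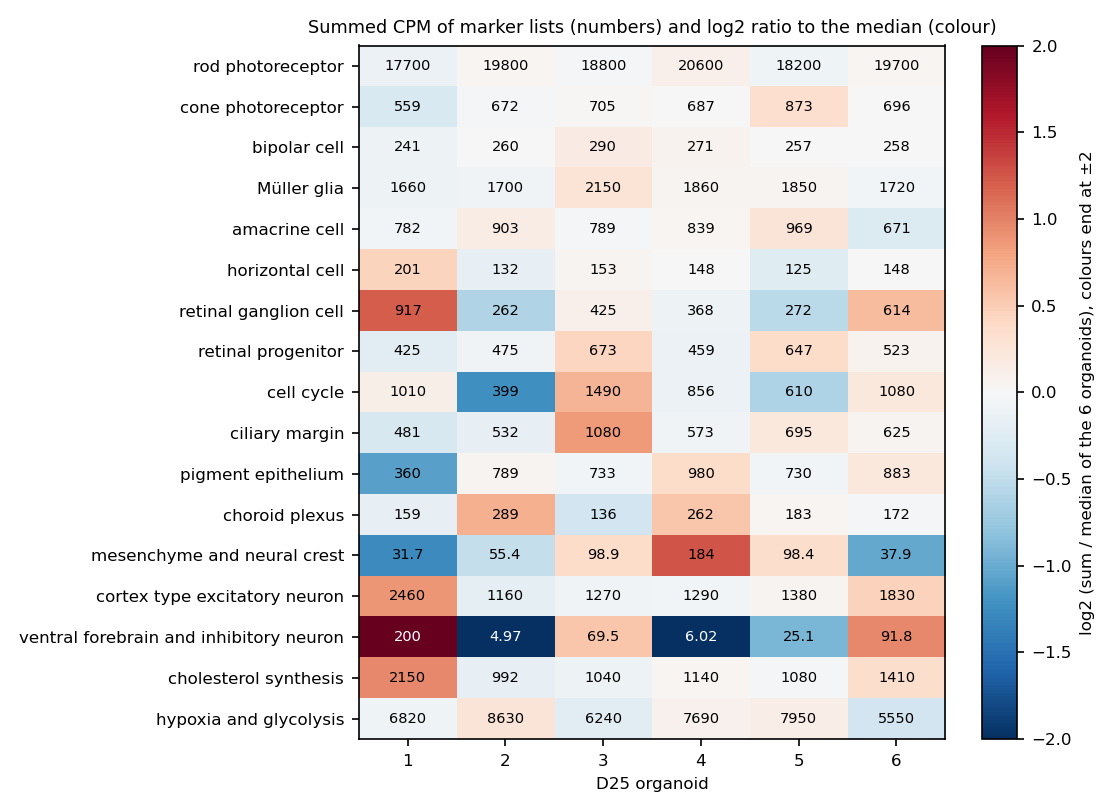
Summed CPM of 17 marker lists (rows) in D25 organoids 1 to 6 (columns), with colour for the log2 ratio to the median of the 6 organoids. The rod sums lie between 17700 and 20600, whereas the list of ventral forebrain and inhibitory neurons runs from 4.97 to 200.

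The spread was then read by lists of marker and pathway genes, as the number of members with an excess CV of 0.5 or more among those with a mean of 50 counts, beside 3.72% of all genes. The lists of the main retinal cells held few such members. None was found among 25 rod genes (median excess CV 0.11, sums from 17700 to 20600 CPM), 9 cone genes (0.149), 12 bipolar cell genes (0.187), 20 Müller glia genes (0.202) and 5 horizontal cell genes (0.239). Amacrine cells had 1 of 15 (Neurod6). Retinal ganglion cells had 5 of 11 (Thy1, Gap43, Stmn2, Slc17a6 and Rbpms), genes that most other projection neurons or other tissues also use, with sums of 917, 262, 425, 368, 272 and 614 CPM. Gap43 and Stmn2 made up most of the sum in each organoid, so the sums mainly follow these 2 genes. The ganglion cell genes Pou4f1, Sncg and, under the mean of 50 counts, Pou4f2 were instead lowest in organoid 1. Nefl and Nefm were highest in organoid 6, with organoid 1 next. Retinal progenitors had 2 of 15 (Fgf15 and Foxn4), the cell cycle 6 of 22 (with Cdk1, Top2a and Cenpf the highest), the ciliary margin 2 of 9 (Aldh1a1 and Ccnd2) and reactive gliosis 2 of 12 (Serpina3n and Gfap).

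Several lists of cells outside the neural retina held more. The cortex type excitatory neuron list had 15 of 22 (median 0.802), with sums of 2460, 1160, 1270, 1290, 1380 and 1830 CPM. In every organoid, more of the sum came from the other members of the list than from these 15. Organoid 5 stood above organoids 2, 3 and 4 by the sum, but below organoids 1, 3 and 6 in Mef2c, Neurod6 and Sla. The sums therefore do not rank the organoids by the variable members, and these did not all share 1 ranking. Of the 15, 12 were in group 1. Emx2 and Eomes were instead highest in organoid 4, at 14.4 and 6.84 CPM, against 3.88 and 3.02 CPM in organoid 1. Neurod1, a member under 0.5, was lowest in organoid 1 (505 CPM) and highest in organoid 5 (833 CPM). Pigment epithelium had 6 of 10 (Gpnmb, Pmel, Ttr, Tyrp1, Lrat and Tyr), with the lowest sum in organoid 1 (360 CPM) and the highest in organoid 4 (980 CPM). Most of the sum in organoid 4 was Ttr, which the choroid plexus also makes. Gpnmb, Pmel and Tyrp1 were highest in organoid 2, Tyr in organoid 3 and Lrat in organoid 4. Organoid 1 was the lowest in all 6 genes. Choroid plexus had 4 of 7 (Clic6, Folr1, Aqp1 and Enpp2). Mesenchyme and neural crest had 6 of 9, with sums of 31.7, 55.4, 98.9, 184, 98.4 and 37.9 CPM. Cartilage and bone had 1 of 6 (Sox5), which belonged to group 1. The 1 counted endoderm gene was Ttr, and 5 genes of that list were at 0 in all 6 organoids. No member past 0.5 was found in the oligodendrocyte lineage (4 counted), multiciliated ependymal cells (3), endothelium (2), lens, muscle and surface epithelium (1 each). No gene of the lists of blood and microglia and of pluripotency reached a mean of 50 counts, and their sums were at most 3.88 and 5.8 CPM.

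The pathway lists held between 0 and 3 such members each. Cholesterol synthesis had 1 of 19 past 0.5 (Hmgcs1), and the sum was 2150, 992, 1040, 1140, 1080 and 1410 CPM. Of the 19 genes, 18 were highest in organoid 1, but the share of all genes compared that were highest there was not computed. Hypoxia and glycolysis had 2 of 23 (Ero1l and Adm), with sums from 5550 CPM in organoid 6 to 8630 CPM in organoid 2. Immediate early genes had 2 of 14 (Nr4a3 and Fosl2), metallothioneins and antioxidants 2 of 11 (Hmox1 and Mt2), basement membrane and collagens 2 of 17 (Nid1 and Nid2), synaptic vesicle and transmission genes 3 of 20 (Syn2, Syn1 and Slc17a6), Wnt and BMP signalling 1 of 8 (Rspo3) and imprinted genes 1 of 22 (Dcn). Genes of amino acid and unfolded protein stress had 0 of 24, the interferon response 0 of 6 and neuropeptides and hormones 0 of 3.

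In the other 18 organoids, which took no part in the choice of genes, many of the same genes were also spread out. Of the 471 genes, 211 had an excess CV of 0.5 or more at D20, 190 at D22 and 243 at D30, 104 of them at all 3 other days and 136 at none. After the mean of each day was subtracted, the median correlation between 2 genes of group 1 over the 18 organoids was 0.601. The corresponding values were 0.464 in group 2, 0.502 in group 3, 0.306 in group 4, 0.422 in group 5, 0.211 in group 6 and 0.371 in group 7, with 0.33 over all pairs of the 471 genes. Pairs with 1 gene in group 1 and 1 in group 3 had a median of 0.512. Groups 4 and 6 were below the value over all pairs. These organoids share libraries across genes, so the correlations are a description. At D30 the summed level of group 1 ran from 2990 CPM in organoid 6 to 21400 CPM in organoid 1 and at D22 from 2710 to 3510 CPM.

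**Figure D4:**
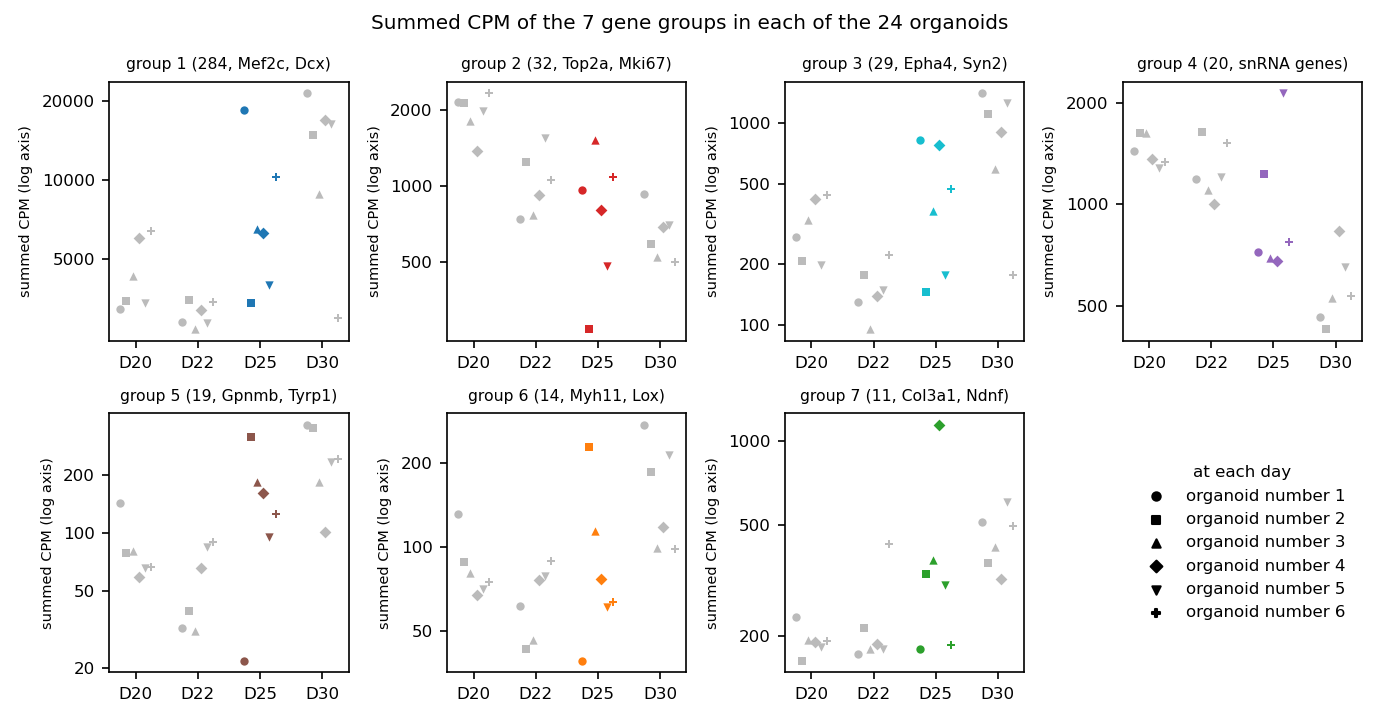
Summed CPM (log axis) of the 7 gene groups in each of the 24 organoids by day, with D25 in colour, the other days in grey and the symbol for the organoid number at that day, which does not link organoids between days. Group 1 lies between 2710 and 3510 CPM at D22, between 3420 and 18500 CPM at D25 and between 2990 and 21400 CPM at D30.

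Whether the genes that differed between D25 organoids also differed between the days around it was tested with the 6 D22 and 6 D30 organoids alone. The D25 counts took no part in this fit, but the genes compared were chosen by their D25 counts and spread. A gene nearly absent at D22 entered only if some D25 organoids held more of it, which favours genes higher at D30. The shares below are therefore not independent of the D25 values, and the part of this choice in them was not tested. By edgeR's quasi-likelihood test at an adjusted p below 0.01, 2992 of the 12653 genes (23.6%) were higher and 1176 (9.29%) lower at D30 than at D22. Of the 471 variable genes, 320 (67.9%) were higher and 34 (7.22%) lower, with a median log2 fold change of 2.11 against 0.18 over all genes. With scaling on annotated genes only, the split over all genes was 2304 higher (18.2%) and 2211 lower (17.5%), the median over all genes was 0.00, and that of the variable genes was 1.91 with 293 higher and 45 lower. In group 1, 239 of 284 genes were higher and none lower, and in group 3, 25 of 29 were higher and none lower. Group 5 had 13 of 19 higher and 1 lower, group 6 had 5 of 14 higher and 1 lower, and group 7 had 7 of 11 higher and none lower. In group 4, 15 of 20 were lower and none higher. Group 2 was mixed, with 7 higher and 8 lower, and 6 higher and 14 lower with scaling on annotated genes only. That scaling kept the larger direction of every other group, with 225 higher in group 1, 21 in group 3, 11 in group 5, 4 in group 6 and 7 in group 7, and 16 lower in group 4. Mef2c was higher at D30 by a log2 fold change of 4.82 (SE 0.66, adjusted p = 2.35e-05), and Top2a was lower with -0.87 (SE 0.19, adjusted p = 0.00158). Gpnmb (2.99, SE 0.85, adjusted p = 0.0118) and Dsp (1.09, SE 0.82, adjusted p = 0.358), the genes with the largest excess CVs, did not pass the threshold.

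**Figure D5:**
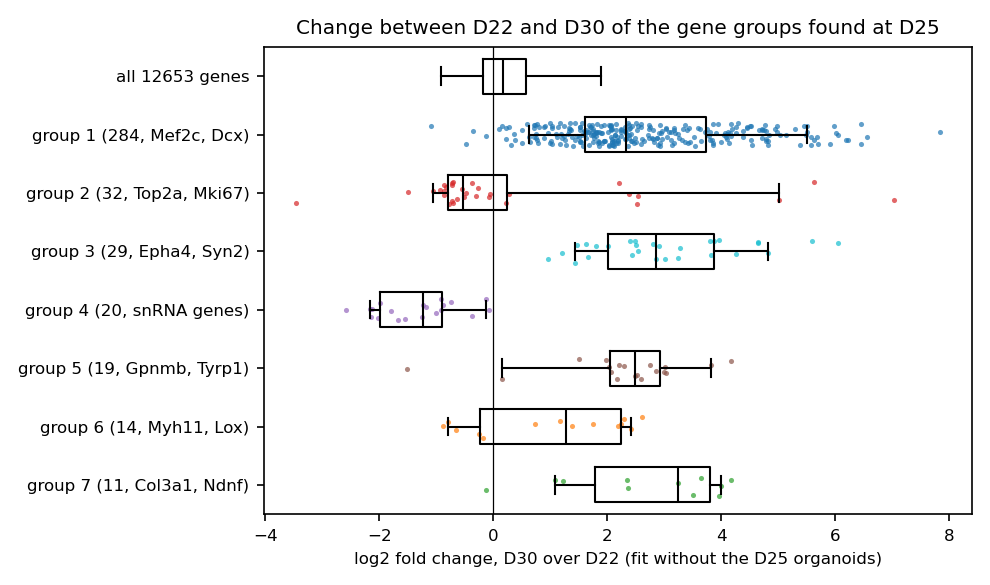
Log2 fold change of D30 over D22 (horizontal axis), fitted without the D25 organoids, for all 12653 genes and for each group found at D25, as boxes of the quartiles with whiskers from the 5th to the 95th percentile and points for single genes of the groups. Groups 1 and 3 lie mostly to the right of the median of all genes (0.18), and group 4 to the left.

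The same change with time could also be read within the D25 organoids from genes outside the variable set. Over 3814 genes that passed the D30 against D22 test and had an excess CV under 0.5, the deviation of organoid 1 from the D25 mean had a slope of 0.109 on the log2 fold change (r = 0.376 across genes). The slope was 0.0658 in organoid 4 (r = 0.398), 0.0178 in organoid 6 (r = 0.106), -0.0121 in organoid 3 (r = -0.0672), -0.0727 in organoid 2 (r = -0.29) and -0.108 in organoid 5 (r = -0.44). Organoids 1 and 4 were thus shifted toward the D30 side and organoids 2 and 5 toward the D22 side. Genes are not independent replicates, and the correlations are given with no test.

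No chromosome stood apart as a whole. The median deviation of the genes of a chromosome from the median of the organoid was between -0.061 and 0.061 on the log2 scale in all 6 organoids. The share of variable genes per chromosome ran from 1.53% on chromosome 11 to 6.81% on chromosome 6 among chromosomes with more than 4 genes compared.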

How the data were processed

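Total RNA of 24 single organoids was depleted of ribosomal RNA and sequenced with a strand-specific kit. The authors aligned the reads to GRCm38/mm10 with HISAT2, assembled new transcripts with StringTie (1.3.3) and deposited whole-number counts per feature from HTSeq (0.6.1), without normalization. The tables list 126602 features, 46603 of them annotated genes. The strand setting of the counting is not given in the sources used here. Samples were grouped by the day and number in their labels. The gene lists, the rule for genes and the threshold were chosen with earlier results of these data known.

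From the counts, TMM factors of edgeR (4.0.16, R 4.3.3) were computed over the 46949 features with a base mean of 10 or more in the 24 organoids, and CPM use the scaled library size. Excess CV, principal components (log2 CPM, prior count 2) and groups (average linkage on 1 - Pearson r, joined up to 0.3, genes at 0.5 or more) used annotated genes with a mean of 50 or more counts. D30 was compared with D22 by edgeR's quasi-likelihood test over all 46949 features with Benjamini-Hochberg adjustment. Genes named are the 30 of largest excess CV, the 15 largest with a mean of 500 or more, the 10 best counted of each of the 4 largest groups, up to 3 per list, 5 of smallest excess CV with a mean of 1000 or more, with ties taken by gene identifier, and 5 photoreceptor genes. Other genes named in the text were chosen after their values were seen. Symbols and positions came from GENCODE vM21 of the same build. The replicate numbers do not pair organoids between days. Counting error is the only error that the depth covers, since the reads carry no molecular identifiers. Each library is a separate organoid. A goodness of fit p-value measures departure from counting error, and cannot tell differences between organoids from differences between library preparations. A p-value of D30 against D22 is set against the spread between organoids of this experiment, which may include pieces of the same aggregate. The steps were tested on simulated counts before use. Alternatives were other scalings, filters and dispersion estimates (DESeq2 1.42.0), other clusterings and the omission of each organoid. Some genes of the lists are not reported here. Figures were drawn with matplotlib (3.10.9).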

Additional observations from a re-analysis of the deposited data

Results flagged for a closer look

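For 166 quantities of the 6 D25 organoids, the gap of the highest or lowest organoid to its nearest neighbour was divided by the whole range, and 32 exceeded Dixon's 95% critical value for 6 values. Chance puts about 1 in 20 such sets past it, and 23 of the 32 are genes out of the 117 named. Of these 117, 107 were chosen with an excess CV of 0.5 or more, which favours such gaps.

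Organoid 4 stood apart as the highest in Dsp (0.939), Ndnf (0.902), Nid1 (0.721), Dcn (0.65) and Col3a1 (0.63), and in the summed CPM of group 7 (0.797). Organoid 2 stood apart as the highest in Hmox1 (0.863), Gpnmb (0.827), Lox (0.787), Mt2 (0.782), Ero1l (0.696) and Serpina3n (0.686), in the sum of genes of amino acid and unfolded protein stress (0.76), in that of neuropeptides and hormones (0.79) and in the share of reads that did not align (0.812). Organoid 1 was far above the others in Cntnap5a (0.764), Syn1 (0.743), A830018L16Rik (0.696), Lmo3 (0.668), Syt4 (0.654), Thy1 (0.648) and Tubb2b (0.636). The same held for the sums of cholesterol synthesis genes (0.639) and of horizontal cell genes (0.632). The 5 horizontal cell genes with a mean of 50 counts all had an excess CV under 0.5. Tpm3 gave 121 of the 201 CPM of that sum in organoid 1, and Prox1 was also highest there (50.3 CPM). Onecut1 and Onecut2 were instead higher in organoid 2 (5.04 and 28.4 CPM) than in organoid 1 (2.4 and 21 CPM). Megf11 was highest in organoid 4. Organoid 1 was far below the others in Nrl (0.693) and in the sum of endothelium genes (0.636), of which 2 reached a mean of 50 counts. Kdr alone gave 162 of the 167 CPM of that sum in organoid 1. Organoid 5 was apart in Hmgn2 (0.748) and Gm25813 (0.664) and in the number of alignments to more than one place (0.711). Organoid 3 was apart in Fgf15 (0.667) and Cdk1 (0.631) and in the sum of ciliary margin genes (0.643). Aldh1a1 gave 643 of the 1080 CPM of that sum in organoid 3. Ccnd2, the other member past 0.5, was highest in organoid 1 (170 CPM). The gap of Nrl is that of a gene with a small spread, from 264 to 376 CPM.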

How the results depend on the processing

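The number of genes that varied beyond counting error kept within 1.5 times of 10726 under every alternative run, from 7986 (mean of 200 or more counts) to 14954 (no filter). The count with an excess CV of 0.5 or more depended on the filter and the estimate. It was 1382 with a mean of 10 or more counts, 190 with 200 or more, 7482 with no filter, since the measure is then led by genes of few reads, and 257 with edgeR's tagwise dispersion, which draws single genes toward a common trend, against 439 with DESeq2's gene-wise dispersion. Other scalings gave 459 to 471. The first component held 43.6% with a mean of 10 or more counts, 33.24% with no filter and 69.72% with the 471 genes alone. The 4 largest groups held 365 genes, and 868 when genes with an excess CV of 0.3 or more were clustered. With ranks in place of values, group 6 kept 4 of 14 genes together, group 5 kept 7 of 19, group 4 kept 8 of 20 and group 7 kept 6 of 11, against 263 of 284 in group 1, 24 of 32 in group 2 and 25 of 29 in group 3. Joined at a correlation of 0.6 or more, groups 1 and 3 formed 1 group, as did groups 5 and 6.

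Leaving out each D25 organoid in turn gave 9489 to 10411 genes beyond counting error, 335 to 547 genes past 0.5 and 49.23% to 58.58% on the first component. For D30 against D22, 8308 features passed, and 5269 when annotated genes alone were fitted, where fewer features were tested. Leaving out each D22 or D30 organoid gave 6902 to 8519 features and 322 to 377 of the 471 genes, against 354. With the replicate number as a block, 6941 features and 327 of the 471 genes passed. Same-numbered D22 and D30 organoids did not deviate together (correlations from -0.0392 to 0.0812), and 2 of the 6 D22 organoids correlated best with their own number, so the numbers are names only. Of the 117 named genes, 112 kept their excess CV within 1 jackknife SE under scaling on annotated genes and 106 under edgeR's tagwise dispersion, where 69 remained at 0.5 or more. Of the 107 named genes at 0.5 or more, 48 fell under 0.5 without 1 organoid. Where several organoids had this effect, the gene is given under the one that lowered it most. Without organoid 1 these were Syn1, Tubb2b, Sox5, Hmgcs1, Stmn2, Nid2, Tmod2, Dclk1, Folr1, Aqp1 and Mapt (0.164 to 0.461). Without organoid 2 they were Mt2, Hmox1, Adm, Ero1l, Rrm2, Pbk, Mki67, Hmmr, Serpina3n, Nuf2, Top2a, Cenpf, Cenpe, Aspm, Islr2 and Cntn2 (0.153 to 0.49), and without organoid 3 Cdk1, Fgf15, Kif23, Aldh1a1 and Foxn4 (0.294 to 0.495). Without organoid 4 they were Ndnf and Nid1 (0.188 and 0.308), without organoid 6 Cacng3 (0.476), and without organoid 5 Hmgn2, Lars2, Rspo3, Homer2, Slc17a6, Gfap and 7 snRNA genes (0.193 to 0.486). Genes just above 50 counts and those with near-identical copies are the least certain.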
